A study of Mus musculus with 9 samples.

Results

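Ion channel genes encode the pores, and the auxiliary subunits that attach to them, through which potassium, sodium, calcium and chloride cross membranes. Here they were taken from the count table by symbol: the Kcn potassium channel genes, the Cacna, Cacnb and Cacng genes of voltage-gated calcium channels, the Scn genes of voltage-gated sodium channels, the Scnn1 genes of the epithelial sodium channel (ENaC), the Clcn chloride channel and exchanger genes, the anoctamins (Ano), the Trpc, Trpm and Trpv cation channel genes, and Cftr. The rule found 181 of the 24059 genes in the table. It also took in Trpc4ap, which encodes a protein that binds TRPC4 and is no channel, and 3 antisense or non-coding RNAs named after channel genes. The epididymis is the coiled duct in which sperm leaving the testis mature and are stored. Its epithelium absorbs sodium and water, secretes potassium, and keeps the luminal fluid acidic and poor in bicarbonate and calcium. In that epithelium ENaC admits sodium, CFTR passes chloride and bicarbonate, TRPV5 and TRPV6 admit calcium, and potassium channels set the membrane voltage under which these ions move.

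RNA was sequenced from the caput (the head of the duct, which receives sperm), the corpus (the body) and the cauda (the tail, where sperm are stored) of wild type C57BL/6J mice aged 9 months, with 3 libraries per segment and no treatment named. The labels give no transgene, and do not say whether the libraries came from separate mice or from pools, so the p-values measure only the spread between these libraries, which may be technical. Levels are given as CPM, gene counts scaled to a common library size after TMM adjustment, and levels of different genes are set side by side only as the authors' RPKM, which are scaled per gene length. Libraries held 2600061 to 6076479 gene counts, so that 1 count was worth 0.155 to 0.375 CPM. The segment labels were checked against known markers: Lcn8, a lipocalin of the proximal duct, lay between 4642 and 5598 CPM in the caput libraries and at 0.749 or less elsewhere, and Crisp1, a secreted sperm-coating protein, lay between 821 and 1113 CPM in caput, 22800 and 29090 in corpus, and 38250 and 46160 in cauda. The RNA came from whole tissue, in which fewer cells of a type and less RNA per cell cannot be told apart.

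Most ion channel genes with enough counts to be tested changed along the duct. Of the 181 genes, 103 passed the low-count filter; 15 had 0 counts in all 9 libraries and 63 had between 1 and 68 counts in total, with no segment mean above 3.16 CPM. Among the 103, the caput to corpus comparison called 71 (68.9%, against 57.7% of all 14168 tested genes) at an edgeR Benjamini-Hochberg adjusted p under 0.05. Of these 34 rose (background 29.5%) and 37 fell (background 28.2%). From corpus to cauda 51 were called (49.5%, background 39.2%), of which 27 rose (background 18.8%) and 24 fell (background 20.4%). Between caput and cauda 72 were called (69.9%, background 54.7%), with 35 higher in cauda (background 27.5%) and 37 lower (background 27.2%). These comparisons share libraries and are not independent of each other. The changes went in both directions in like numbers: the median log2 change of the 103 was -0.11, 0.22 and -0.03 in the 3 comparisons, beside 0, -0.01 and 0.01 over all tested genes. Their sizes were larger than those of tested genes at large, with median absolute log2 changes of 1.42, 0.86 and 1.31 against 0.51, 0.32 and 0.47. A gene with few counts could pass the filter through the segment where it was high, which by itself favours large changes. The 103 and all tested genes were not matched for level, so the difference in size is a description only. An edgeR F test over the 3 segments called 86 of the 103 (83.5%, background 69%). Summed over the 181 genes, the level was 3556 ± 106.5 CPM in caput, 4074 ± 130.4 in the corpus and 4423 ± 115 in cauda (mean ± SD of 3 libraries, as throughout).

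Per gene length, different classes led in different segments. The 40 voltage-gated potassium channel genes summed to 46.7 ± 3.55 RPKM in caput, 125 ± 3.33 in the corpus and 141 ± 3.63 in cauda. The 6 TRPV genes summed to 9.82 ± 2.40, 49.6 ± 1.09 and 76 ± 4.35 RPKM. The 14 two-pore-domain potassium channel genes ran the other way, from 138 ± 6.26 to 113 ± 3.01 and 97.6 ± 4 RPKM, as did the 15 inward rectifiers, from 36.9 ± 3.93 to 22.3 ± 0.668 and 11.8 ± 1.39 RPKM. The 10 anoctamins dipped in the corpus, at 66.2 ± 5.65, 25.8 ± 3.10 and 69.2 ± 8.61 RPKM, and the 9 CLC genes peaked there, at 62.1 ± 2.47, 91.8 ± 3.18 and 72.2 ± 6.14 RPKM. These sums are descriptions of levels, each ruled by a few abundant genes, and were not tested as sums.

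**Figure D1:**
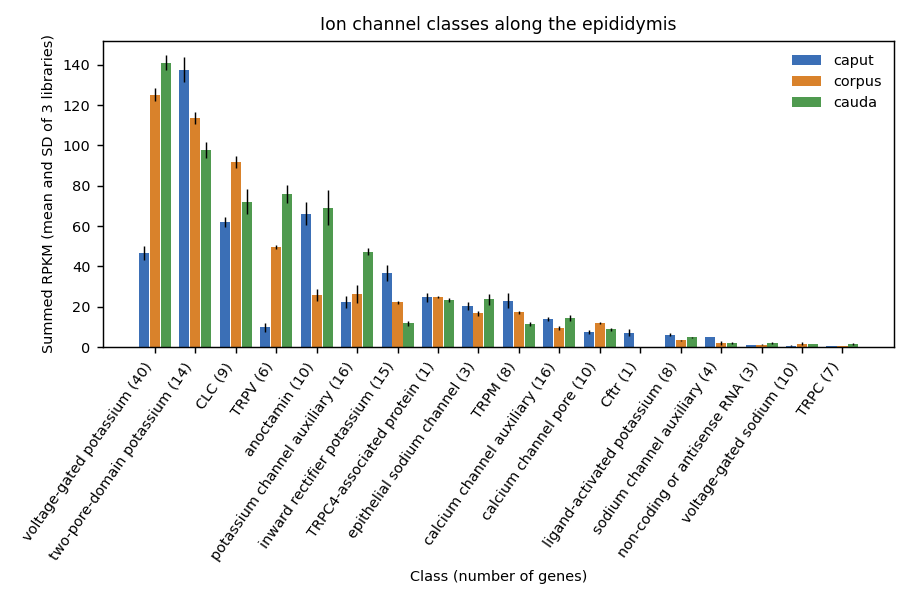
Summed deposited RPKM of each class of ion channel genes (vertical axis, linear from 0) in caput, corpus and cauda, with the number of genes in parentheses; bars are means and lines the SD of 3 libraries. Voltage-gated potassium channels went from 46.7 in caput to 141 in cauda and TRPV channels from 9.82 to 76, two-pore-domain potassium channels went from 138 to 97.6, and anoctamins were lowest in corpus at 25.8.

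The most abundant channel transcript per length was Kcnk1 in every segment, which encodes the two-pore-domain potassium channel TWIK-1; its libraries read 129, 131 and 120.3 RPKM in caput, 109, 102 and 107 in the corpus and 88.8, 88.9 and 83 in cauda. The cauda libraries were the lowest, with no overlap, and the corpus to cauda fall was small (log2 change -0.36, SE 0.07, edgeR adjusted p = 0.00146). Of its 36-base windows, 6.44% also occur in another gene of the annotation. Behind Kcnk1 the order differed by segment. In caput the next were the calcium-activated chloride channel gene Ano1 at 28.6 ± 3.88 RPKM, Trpc4ap at 24.8 ± 2.25, the lysosomal chloride-proton exchanger gene Clcn7 at 22.15 ± 0.478, the inward rectifier gene Kcnj15 at 20.9 ± 2.83 and the ENaC alpha subunit gene Scnn1a at 20.2 ± 1.985; from Ano1 to Scnn1a the libraries of neighbours in this order overlapped. In corpus the Kv3 potassium channel gene Kcnc4 at 60.8 ± 1.9 and Clcn7 at 54 ± 3.08 stood next, above Trpv6 at 30.4 ± 0.319. In cauda Trpv6 came next at 71.3 ± 4.22 RPKM, and among those after it were Kcnc4 at 47.4 ± 3.88, Ano1 at 42.85 ± 7.04 and Kcnip3 at 35.2 ± 2.01, where the Ano1 libraries overlapped those of both. A mean of at least 1 RPKM was reached by 56 of the 181 genes in caput, 44 in the corpus and 48 in cauda.

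**Figure D2:**
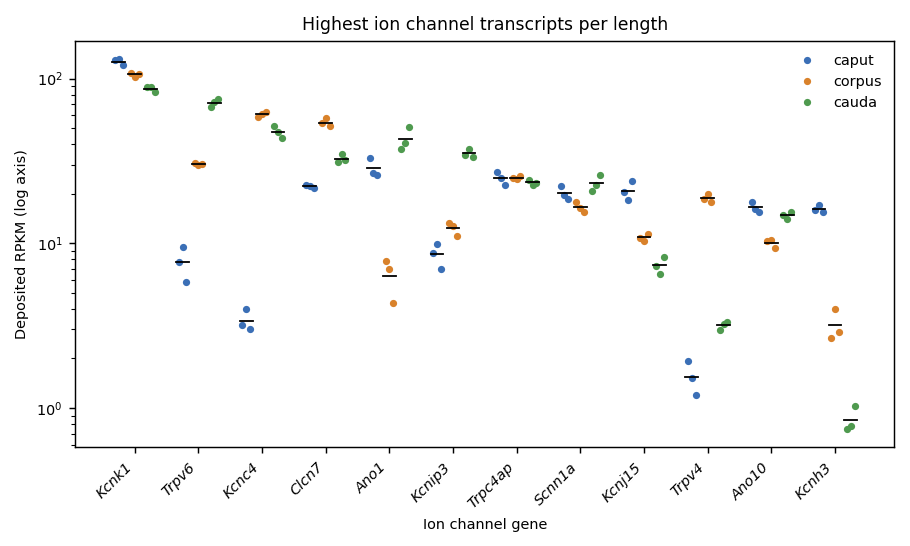
Deposited RPKM (logarithmic axis) of 12 ion channel genes from the top 8 of each segment; points are the 9 libraries and black bars the segment means. Kcnk1 stood highest in each segment, Trpv6 went from 7.68 in caput to 71.3 in cauda, and Kcnh3 from 16.2 to 0.851.

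Among the anion channels, the transcript of Cftr, the cAMP-regulated chloride and bicarbonate channel, was nearly absent outside the caput. Its libraries held 187, 269 and 396 counts in caput, 0, 1 and 1 in the corpus and 0, 1 and 0 in cauda, or 63.1, 83.9 and 104.5 CPM in caput. No library outside the caput held more than 1 count of it. Summed over libraries, Cftr was 617-fold (95% counting interval 170 to 5110) higher in caput than in corpus and 1440-fold (95% counting interval 259 to 57100) higher than in cauda, with edgeR adjusted p values of 2.64e-10 and 1.75e-10. Corpus and cauda could not be told apart at this depth. Markers of ciliated cells, summed over 8 genes, lay between 77.1 and 95.9 CPM in caput, 26.4 and 31.5 in the corpus and 27.3 and 39 in cauda. From caput to corpus 6 of the 8 fell (background 28.2%), among them Foxj1, from 28.2 ± 9.42 to 0.291 ± 0.0946 CPM. Rsph1 and Hydin were not called there. Dnah9 did not stay low, at 7.49 ± 0.642 CPM in caput, 0.115 ± 0.101 in the corpus and 11.6 ± 3.88 in cauda. The markers thus did not all follow Cftr. Their part in the result was not tested. Cftr lies on mm10 chromosome 6 from 18170687 to 18322768 on the plus strand. RefSeq's promoter window of the GRCm38.p6 assembly, 300 bases from 250 before the gene start to 50 after it, holds none of the 3 motifs searched in this set (AGAACA, the hexamer bound by the androgen receptor; CCGGAAG, an ETS factor site; and TGANTCA, an AP-1 site; each on both strands), and is shown because Cftr heads the falls from caput to corpus and to cauda:
Cftr (chr6:18170437-18170736, plus strand): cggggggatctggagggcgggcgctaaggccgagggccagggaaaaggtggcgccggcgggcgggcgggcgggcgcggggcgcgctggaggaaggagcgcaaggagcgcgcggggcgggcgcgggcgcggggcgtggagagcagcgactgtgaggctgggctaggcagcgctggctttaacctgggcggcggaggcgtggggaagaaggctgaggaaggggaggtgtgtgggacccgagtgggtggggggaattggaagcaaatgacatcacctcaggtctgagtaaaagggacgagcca

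Ano1, the calcium-activated chloride channel TMEM16A, fell from caput to corpus and was highest in cauda. It read 273, 219.9 and 227 CPM in caput, 70.4, 62.8 and 42.4 in the corpus and 329, 362 and 442 in cauda. The 3 segments did not overlap, and the change was 4.16-fold down into the corpus (log2 change -2.06, SE 0.17, edgeR adjusted p = 2.03e-07) and 6.54-fold up into the cauda (log2 change 2.71, SE 0.17, edgeR adjusted p = 3.92e-08). Of the 10 anoctamin genes 7 were tested, and 6 of these fell from caput to corpus (background 28.2%). Ano8 did not pass the test (log2 change -0.08, edgeR adjusted p = 0.794). Ano1, Ano6 and Ano10 rose again from corpus to cauda. Ano6, a calcium-activated phospholipid scramblase that also conducts ions, had 156 ± 13.6 CPM in caput, 87.75 ± 4.19 in the corpus and 107.5 ± 8.26 in cauda, and its rise into the cauda (log2 change 0.29, SE 0.09, edgeR adjusted p = 0.0186) lost its call without cauda replicate 3 (adjusted p = 0.0727), without corpus replicate 1 (0.0575), without corpus replicate 3 (0.0597) or without replicate 3 of every segment (0.105). Ano10 had 79.9 ± 4.52 CPM in caput, 53.65 ± 0.643 in the corpus and 75.1 ± 2.98 in cauda. The 12 smooth muscle markers summed to 2584 to 2777 CPM in caput, 596 to 1349 in the corpus and 3792 to 6922 in cauda. Corpus replicate 3 was the lowest and cauda replicate 3 the highest library in both this sum and Ano1. From caput to corpus 3 of the 12 were called lower (background 28.2%) and 0 higher. The smooth muscle actin gene Actg2 fell there from 1243 ± 108 to 17.2 ± 9.83 CPM. From corpus to cauda 11 of the 12 markers rose (background 18.8%). Their part in the result was not tested. Ano3, another TMEM16 family gene, read 28.7, 31.2 and 32.2 CPM in caput against a total of 2 counts in corpus and 10 in cauda. It was 222-fold (95% counting interval 61 to 1840) higher in caput than in corpus (edgeR adjusted p = 2.6e-08).

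Among the CLC genes, Clcn7, the lysosomal exchanger, peaked in the corpus. Its libraries read 165, 161 and 167 CPM in caput, 427, 453 and 442 in the corpus and 241, 273 and 247 in cauda. No library of one segment reached another, and Clcn7 rose 2.68-fold into the corpus (log2 change 1.42, SE 0.07, edgeR adjusted p = 1.73e-09) and fell 1.74-fold into the cauda (log2 change -0.80, SE 0.07, edgeR adjusted p = 1.09e-06). Clcn3, an endosomal exchanger, had 12.5 ± 0.797 RPKM in caput, 11.85 ± 0.561 in the corpus and 12.2 ± 1.55 in cauda, and Clcn2, a plasma membrane chloride channel, had 2.11 ± 0.451 RPKM in caput, 2.09 ± 0.666 in the corpus and 1.6 ± 0.3215 in cauda; neither passed a test of the 3 comparisons in the model of segments alone. Of the 7 CLC genes tested, 2 rose and 1 fell from caput to corpus, and 4 passed no test there, or 3 of 7 called against the background of 57.7%.

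Clcn5, the endosomal exchanger of kidney proximal tubule, followed the replicate number rather than the segment. It held 37, 74 and 183 counts in caput, 18, 56 and 192 in the corpus and 41, 48 and 401 in cauda. The library numbered 3 was the highest of each segment. The model of segments alone, over all 9 libraries, called no comparison of Clcn5, the smallest edgeR adjusted p being 0.51 for corpus against caput. Without replicate 3 of every segment, a setting chosen after this pattern was seen, the log2 change was -1.16 (edgeR adjusted p = 0.0037) from caput to corpus and -1.12 (0.00365) from caput to cauda. Without cauda replicate 3 alone, the latter was -1.79 (edgeR adjusted p = 0.0376). The labels do not say what the replicate numbers mark.

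Of the ENaC subunit genes, that of the alpha subunit was far the most abundant. Scnn1a read 22.4, 19.7 and 18.5 RPKM in caput, 17.7, 16.4 and 15.6 in the corpus and 20.9, 22.6 and 25.8 in cauda. The beta and gamma subunit genes Scnn1b and Scnn1g, which complete the channel, stayed at or below 0.273 RPKM on average and did not pass the low-count filter. Scnn1b held 9, 12 and 23 counts in all of caput, corpus and cauda, and Scnn1g 2, 3 and 27. In the fit without this filter, Scnn1g was called higher in cauda than in corpus (log2 change 2.75, edgeR adjusted p = 0.0155). It was also called higher in cauda than in caput (log2 change 2.84, edgeR adjusted p = 0.0184). No comparison of Scnn1b was called in that fit. Scnn1a rose modestly from corpus to cauda, from 117 ± 5.11 to 155 ± 15.2 CPM (log2 change 0.41, SE 0.09, edgeR adjusted p = 0.00223). Its caput and cauda libraries overlapped, and the call between those segments (log2 change 0.26, SE 0.09, edgeR adjusted p = 0.0226) was lost without caput replicate 2 (adjusted p = 0.0774), caput replicate 3 (0.0852), cauda replicate 3 (0.0843) or replicate 3 of every segment (0.193).

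Voltage-gated sodium channel genes were low, with 10 pore genes that summed to 0.801 ± 0.0747, 1.77 ± 0.607 and 1.57 ± 0.0373 RPKM in caput, corpus and cauda. Scn8a, the pore gene of the neuronal sodium channel Nav1.6, peaked in the corpus at 12.7, 14 and 11.5 CPM, against 1.35, 2.81 and 2.375 in caput and 1.88, 0.4 and 0.8285 in cauda. The corpus libraries stood above all others. Scn8a rose 5.73-fold into the corpus (log2 change 2.52, SE 0.35, edgeR adjusted p = 3.4e-05) and fell 11.7-fold into the cauda (log2 change -3.55, SE 0.35, edgeR adjusted p = 3.45e-06; log2 change -4.27 without cauda replicate 1). The auxiliary beta subunit genes, read here after their values were seen, differed from it: Scn2b had 30.6 ± 1.92 CPM in caput, 1.61 ± 0.912 in the corpus and 3.09 ± 0.865 in cauda, and Scn3b 0.713 ± 0.207 CPM in caput, 3.68 ± 1.26 in the corpus and 1.785 ± 0.363 in cauda. Scn2b was thus enriched in caput and Scn3b in corpus. Scn4b, 8.32 kb from Scn2b on chromosome 9, passed no test, with 1.97 ± 0.9305 CPM in caput, 1.75 ± 0.947 in the corpus and 2.54 ± 0.316 in cauda.

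The calcium-selective channel gene Trpv6 rose at each step along the duct and its neighbour Trpv5 was highest in the same segment. Trpv6 read 40.5, 49.9 and 32.2 CPM in caput, 177, 171 and 189 in the corpus and 375, 409 and 416 in cauda. Every corpus library stood above every caput library and every cauda library above both. The rise was 4.41-fold into the corpus (log2 change 2.14, SE 0.12, edgeR adjusted p = 6.15e-09) and a further 2.23-fold into the cauda (log2 change 1.16, SE 0.11, edgeR adjusted p = 1.64e-06). Trpv5 was far lower per length, at 0.497 ± 0.0767 RPKM in cauda beside 71.3 ± 4.22 for Trpv6. It held 0, 1 and 0 counts in caput, 1, 4 and 2 in the corpus and 17, 11 and 14 in cauda. The cauda libraries were again the highest, with 24.8-fold (95% counting interval 4.21 to 1000) more than caput (edgeR adjusted p = 0.000224) and a rise from corpus of log2 2.30 (SE 0.48, edgeR adjusted p = 0.00186). Both genes lie on the minus strand of mm10 chromosome 6, Trpv6 from 41620624 to 41636405 and Trpv5 from 41652173 to 41680769, with 15.8 kb between them, and of their 36-base windows 0.694% and 0.864% occur in another gene. Their RefSeq promoter windows (GRCm38.p6) are shown because the adjacent genes were enriched in the same segment; AGAACA is in capitals in the Trpv6 window and no searched motif is in the Trpv5 window:
Trpv6 (chr6:41636356-41636655, minus strand): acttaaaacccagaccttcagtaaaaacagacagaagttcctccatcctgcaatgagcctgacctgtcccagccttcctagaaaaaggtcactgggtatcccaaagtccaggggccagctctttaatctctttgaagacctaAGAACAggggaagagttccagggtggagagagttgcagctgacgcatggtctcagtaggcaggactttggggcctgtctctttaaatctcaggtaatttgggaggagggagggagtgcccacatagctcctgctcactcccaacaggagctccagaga
Trpv5 (chr6:41680674-41680973, minus strand): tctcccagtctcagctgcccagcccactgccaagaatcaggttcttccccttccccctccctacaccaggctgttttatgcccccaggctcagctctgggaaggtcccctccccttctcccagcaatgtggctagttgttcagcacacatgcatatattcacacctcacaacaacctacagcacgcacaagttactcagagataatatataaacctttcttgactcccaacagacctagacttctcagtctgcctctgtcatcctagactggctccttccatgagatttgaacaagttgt

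Trpv4, a cation channel opened by cell swelling and by mechanical and lipid stimuli, peaked in the corpus instead. Its libraries read 11.1, 8.73 and 7.39 CPM in caput, 119, 126 and 122 in the corpus and 18.45, 20.4 and 20.2 in cauda. The corpus libraries lay far above the others, and cauda lay above caput without overlap. Trpv4 rose 13.6-fold into the corpus (log2 change 3.77, SE 0.12, edgeR adjusted p = 1.74e-11) and fell 6.215-fold into the cauda (log2 change -2.64, SE 0.10, edgeR adjusted p = 4.97e-10).

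TRPM genes were mostly lower beyond the caput. Of the 6 tested, 4 fell (background 28.2%) and 2 rose (background 29.5%) from caput to corpus. In cauda 5 were lower than in caput (background 27.2%). Trpm6, an epithelial magnesium channel fused to a kinase, read 15.5, 15 and 26.4 CPM in caput and held 5 counts in all of corpus and 3 in all of cauda. Trpm6 fell 51.4-fold into the corpus (log2 change -5.68, SE 0.56, edgeR adjusted p = 1.48e-06; log2 change -6.95 without corpus replicate 2), and was 110-fold (95% counting interval 37 to 536) higher in caput than in cauda. Its close relative Trpm7, which is expressed in most cells, had 109.8 ± 15.8 CPM in caput, 67.1 ± 5.89 in the corpus and 78.8 ± 10.4 in cauda and fell 1.63-fold from caput to corpus (log2 change -0.70, SE 0.12, edgeR adjusted p = 0.000238). Trpm1, known as the light-response channel of retinal bipolar cells, ran the other way. It held 0, 0 and 1 counts in caput, 29, 70 and 46 in the corpus and 46, 42 and 57 in cauda. Trpm1 was 100-fold (95% counting interval 17.7 to 3980) higher in corpus than in caput (edgeR adjusted p = 1.8e-07) and 85.5-fold (95% counting interval 15.1 to 3400) higher in cauda (adjusted p = 3.62e-07), and corpus and cauda overlapped. Trpm4, a calcium-activated channel for monovalent cations, was the other TRPM gene that rose into the corpus (log2 change 0.38, SE 0.11, edgeR adjusted p = 0.0096). Trpm3, named with Trpm4 after their values were seen, fell at both steps, with 105 ± 39.9 CPM in caput, 66.8 ± 10 in the corpus and 12 ± 3.295 in cauda. Its caput and corpus libraries overlapped, and that fall was the smaller (log2 change -0.66, SE 0.22, edgeR adjusted p = 0.02).

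Voltage-gated calcium channel pores differed in segment: of the 7 tested, 3 were enriched in caput (background 9.92%) and 2 in corpus (background 4%). Cacna1b, the pore of the N-type channel best known from nerve terminals, held 2, 0 and 0 counts in caput, 306, 681 and 742 in the corpus and 157, 137 and 154 in cauda, or 115, 106 and 139.7 CPM in corpus and 26.8, 27.4 and 25.5 in cauda. Both counts in caput came from replicate 1. Cacna1b was 597-fold (95% counting interval 165 to 4930) higher in corpus than in caput (edgeR adjusted p = 4.11e-11) and 4.52-fold lower in cauda than in corpus (log2 change -2.18, SE 0.14, edgeR adjusted p = 4.73e-08). In length-scaled terms it was the highest calcium channel pore gene in corpus, at 6.075 ± 0.5965 RPKM, beside 4.67 ± 0.691 for the L-type pore gene Cacna1d. Markers of neurons and glia, summed over 12 genes with Elavl4 at 0 in every library, moved the opposite way, at 87.1 to 96.3 CPM in caput, 16.4 to 29 in the corpus and 82.2 to 90.7 in cauda. Their part in the result was not tested. The RefSeq window at the Cacna1b start is shown because the gene heads the rises from caput to corpus; it holds none of the 3 searched motifs, which says only that these letters are not in this window:
Cacna1b (chr2:24763103-24763402, minus strand): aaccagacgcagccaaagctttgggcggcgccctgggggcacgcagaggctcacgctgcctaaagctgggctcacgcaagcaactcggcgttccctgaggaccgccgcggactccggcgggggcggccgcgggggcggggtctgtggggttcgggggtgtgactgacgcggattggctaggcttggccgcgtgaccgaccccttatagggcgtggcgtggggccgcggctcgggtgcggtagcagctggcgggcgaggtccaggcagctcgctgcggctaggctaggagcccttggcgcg

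The T-type pores, which open at low voltage, did not share a segment. Cacna1i held 0, 1 and 1 counts in caput, 10, 50 and 32 in the corpus and 2, 0 and 0 in cauda. It was 31.7-fold (95% counting interval 8.54 to 266) higher in corpus than in caput (edgeR adjusted p = 4.5e-05) and 53.8-fold (95% counting interval 14.5 to 451) higher than in cauda (adjusted p = 1.6e-05). Cacna1g was highest in caput, with 4.62 ± 1.56 CPM in caput, 1.48 ± 0.7995 in the corpus and 1.76 ± 0.497 in cauda, and its caput to cauda fall (log2 change -1.35, SE 0.42, edgeR adjusted p = 0.0144) lost its call without caput replicate 1 (adjusted p = 0.0782) or cauda replicate 1 (0.0548). Cacna1h, named after its values were seen, was likewise enriched in caput, with 27.9 ± 6.8 CPM in caput, 5.35 ± 2.635 in the corpus and 10.9 ± 1.655 in cauda.

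Among the L-type pores, Cacna1d was measured at 67.2 ± 6.835 CPM in caput, 86.7 ± 9.06 in the corpus and 101 ± 10.45 in cauda and was higher in cauda than in caput (log2 change 0.60, SE 0.11, edgeR adjusted p = 0.00044), while its rise from caput to corpus (adjusted p = 0.0132) lost its call without caput replicate 3 (adjusted p = 0.0676). Cacna1c, the pore of cardiac and smooth muscle, read 9.11, 11.85 and 12.4 CPM in caput, 2.25, 4.81 and 1.51 in the corpus and 10.25, 9.61 and 25.7 in cauda. Corpus was the lowest segment and cauda replicate 3 the highest library. Cacna1c rose from corpus to cauda by log2 2.32 (SE 0.45, edgeR adjusted p = 0.00108), by 3.10 without corpus replicate 2 and by 1.31 without replicate 3 of every segment. Cauda replicate 3 was also the highest in the sum of smooth muscle markers, of which 11 of 12 rose from corpus to cauda. Between caput and cauda 10 of them rose and Actg2, a smooth muscle actin, fell from 1243 ± 108 to 205 ± 67.6 CPM (log2 change -2.60, edgeR adjusted p = 3.7e-06). Their part in the result was not tested. Kcnmb1, the smooth muscle beta subunit of the BK channel, named here for that role after its values were seen, had 4.86 ± 2.01 CPM in caput, 0.862 ± 0.421 in the corpus and 4.02 ± 1.29 in cauda.

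Of the auxiliary alpha2delta subunit genes, which carry calcium channel pores to the surface, Cacna2d2 rose into the corpus, as did Cacna1b, and Cacna2d3 was highest in caput. Cacna2d2 read 0.675, 0.936 and 0.528 CPM in caput, 23.2, 21.1 and 20.7 in the corpus and 8.03, 9.81 and 8.45 in cauda. Its corpus libraries were the highest and its caput libraries the lowest, with a 29.5-fold rise into the corpus (log2 change 4.88, SE 0.27, edgeR adjusted p = 3.78e-09) and a 2.46-fold fall into the cauda (log2 change -1.30, SE 0.16, edgeR adjusted p = 2.4e-05). Cacna2d3 read 25.65, 24.3 and 35.6 CPM in caput, 1.12, 1.4 and 1.695 in the corpus and 11.6, 12.4 and 11.8 in cauda. The corpus was lowest by far, 19.4-fold under caput (log2 change -4.28, SE 0.24, edgeR adjusted p = 5.4e-09) and 8.08-fold under cauda (log2 change 3.01, SE 0.26, edgeR adjusted p = 9.18e-07). All 8 tested auxiliary genes of calcium channels passed the F test over the segments, as did 69% of all tested genes.

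Potassium channels made up the largest share of the set, with 77 pore genes of which 39 were tested. The F test was passed by 36 of these 39, and by 69% of all tested genes. The inward rectifiers pass potassium more readily into the cell. All 7 tested changed from caput to corpus, of which 4 fell (background 28.2%) and 3 rose (background 29.5%). Kcnj11, the pore of the ATP-sensitive channel, was a caput gene, with 57, 51.5 and 72.3 CPM in caput, 0.3745, 1.085 and 0.377 in the corpus and 0.5125, 0.4 and 0.166 in cauda. The caput libraries stood above all others without overlap. It fell 84.4-fold into the corpus (log2 change -6.40, SE 0.29, edgeR adjusted p = 4.33e-10). Kcnj8, which encodes the other pore of ATP-sensitive channels and was named after its values were seen, ran the opposite way, with 4 ± 1.22 CPM in caput, 30.5 ± 4.96 in the corpus and 13.8 ± 1.77 in cauda. Kcnj12, a strong inward rectifier, read 12.15, 11.2 and 9.24 CPM in caput and at most 0.62 in any other library, and fell 29.15-fold into the corpus (log2 change -4.87, SE 0.54, edgeR adjusted p = 4.28e-06). Without corpus replicate 2, the log2 change into the corpus was -7.22 for Kcnj11 and -6.12 for Kcnj12, both still called.

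Kcnj15 and Kcnj16 encode subunits found in potassium-recycling epithelia such as the kidney tubule. Kcnj15 fell at each step, from 200.1, 179 and 248 CPM in caput to 116, 111 and 133 in the corpus and 76.5, 69.45 and 85.5 in cauda. The segments did not overlap (log2 change -0.80, adjusted p = 7.37e-05 and log2 change -0.64, adjusted p = 0.0011 in edgeR). Kcnj16 read 11.1, 9.67 and 7.125 CPM in caput, 16.85, 24 and 21.3 in the corpus and 0.5125, 1.2 and 0.497 in cauda. It was highest in corpus and fell 28.5-fold into the cauda (log2 change -4.83, SE 0.31, edgeR adjusted p = 6.31e-08). Kcnj2, 38.2 kb away on chromosome 11 and named for that place, was highest in caput instead, at 15.9 ± 2.74 CPM in caput, 3.78 ± 0.807 in the corpus and 2.87 ± 0.457 in cauda. Kcnj6, a G protein-gated rectifier, held 2, 36 and 4 counts in all of caput, corpus and cauda, and was 12.4-fold (95% counting interval 3.2 to 106) higher in corpus than in caput (edgeR adjusted p = 0.00101). Kcnj1, the kidney secretory channel ROMK, had 1 count in the 9 libraries.

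Genes of the two-pore-domain family encode leak channels. Of the 5 tested, 3 fell (background 28.2%) and none rose (background 29.5%) from caput to corpus. Kcnk5, a leak channel opened by alkaline pH and linked to bicarbonate transport in kidney, had 45.9 ± 4.42 CPM in caput, 35.4 ± 3.17 in the corpus and 48.2 ± 7.46 in cauda. Its fall from caput to corpus (log2 change -0.39, SE 0.13, edgeR adjusted p = 0.0208) lost its call without caput replicate 1 (adjusted p = 0.0894) or corpus replicate 2 (0.0859), and its rise into the cauda (adjusted p = 0.0101) was called. Kcnk3, an acid-sensitive leak channel, was a cauda gene, with 0.3375, 0.936 and 0.528 CPM in caput, 0.3745, 1.55 and 0.188 in the corpus and 5.81, 7.005 and 12.8 in cauda. The cauda libraries stood above all others, and replicate 3, which also had the highest smooth muscle markers, was the highest. Kcnk3 rose by log2 3.35 from corpus to cauda (SE 0.51, edgeR adjusted p = 0.00017), by 4.95 without corpus replicate 2 and by 2.40 without replicate 3 of every segment. The part of smooth muscle markers in the result was not tested.

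Kv3 channels, which open and close fast at high voltage, included the largest gain in corpus RPKM among the 181 genes. Kcnc4 read 17.2, 21.5 and 17.15 CPM in caput, 348, 358 and 401 in the corpus and 296, 277 and 248 in cauda. Caput lay far below both other segments. Kcnc4 rose 19.8-fold into the corpus (log2 change 4.31, SE 0.12, edgeR adjusted p = 3.66e-12) and then fell 1.35-fold (log2 change -0.43, SE 0.09, edgeR adjusted p = 0.00167). Kcnc2 ran the other way, with 30, 23 and 19 counts in caput, 1, 1 and 0 in the corpus and 5, 3 and 4 in cauda. It was 52.2-fold (95% counting interval 13.9 to 439) higher in caput than in corpus (edgeR adjusted p = 2.94e-06).

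The Kv4 channels, which give a fast inactivating current, included members higher in corpus and in cauda. Kcnd1 read 2.7, 4.37 and 3.17 CPM in caput, 18, 27.6 and 36.35 in the corpus and 10.1, 12.4 and 12.3 in cauda, an 8.14-fold rise into the corpus (log2 change 3.03, SE 0.29, edgeR adjusted p = 1.02e-06). Kcnd2 held 1, 0 and 0 counts in caput, 5, 6 and 1 in the corpus and 64, 48 and 70 in cauda. Kcnd2 was 107-fold (95% counting interval 19 to 4260) higher in cauda than in caput (edgeR adjusted p = 2.66e-06). Its caput to corpus rise (adjusted p = 0.0465) was lost in 7 of the 9 fits that left out a library. Kcnip3, a calcium-binding Kv4 subunit that also acts as a transcriptional repressor, read 56.4, 63.6 and 47.2 CPM in caput, 93.6, 88.5 and 83.6 in the corpus and 236, 259.6 and 226.5 in cauda. The 3 segments did not overlap, with a 2.73-fold rise into the cauda (log2 change 1.45, SE 0.10, edgeR adjusted p = 9.39e-08). Kcnip2, the related cardiac subunit, fell from 3.38 ± 1.125 to 0.423 ± 0.224 CPM between corpus and cauda (log2 change -3.02, SE 0.51, edgeR adjusted p = 0.000354). Dpp6, a Kv4 auxiliary protein outside the symbol rule, had 1.435 ± 0.875 CPM in caput, 118 ± 23.7 in the corpus and 120.4 ± 7.185 in cauda, and rose into the corpus (log2 change 6.36, adjusted p = 1.63e-10 in edgeR). The first of the RefSeq promoter windows of Kcnip3 holds TGANTCA, in capitals, and is shown as the 1 cauda-enriched window with that site:
Kcnip3 (chr2:127522045-127522344, minus strand): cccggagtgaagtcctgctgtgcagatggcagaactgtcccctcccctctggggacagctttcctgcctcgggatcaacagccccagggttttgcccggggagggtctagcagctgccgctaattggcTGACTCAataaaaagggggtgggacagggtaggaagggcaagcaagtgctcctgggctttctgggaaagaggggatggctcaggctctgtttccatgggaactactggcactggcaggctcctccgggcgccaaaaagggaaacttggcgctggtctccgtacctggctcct

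Kcns and Kcng genes encode silent subunits, which form no channel alone and modify Kv2 pores. Kcns1 was highest in cauda, with 1.35, 0.624 and 2.64 CPM in caput, 3, 0.93 and 1.32 in the corpus and 75.7, 87.5 and 78.5 in cauda. The cauda libraries stood far above the rest, and caput and corpus overlapped. Kcns1 rose 53.75-fold from corpus to cauda (log2 change 5.75, SE 0.25, edgeR adjusted p = 1.56e-09). Kcns3 and Kcng4 peaked in the corpus. Kcns3 read 4.39, 5.3 and 7.65 CPM in caput, 34.1, 30.55 and 34.3 in the corpus and 4.44, 4.4 and 5.63 in cauda. Kcng4 read 4.39, 3.12 and 2.9 CPM in caput, 28.1, 27.3 and 23.5 in the corpus and 1.025, 1.8 and 1.33 in cauda. For both the corpus libraries were highest without overlap, with falls into the cauda of 6.75-fold (log2 change -2.75, SE 0.18, edgeR adjusted p = 8.63e-08) and 18.8-fold (log2 change -4.24, SE 0.23, edgeR adjusted p = 1.31e-08). Amigo1, a Kv2 auxiliary protein outside the symbol rule, had 29.9 ± 2.92 CPM in caput, 10.5 ± 1.57 in the corpus and 76.2 ± 6.46 in cauda.

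Other voltage-gated potassium channels were enriched in caput. Kcna1, the Kv1.1 pore, read 43.9, 68.3 and 69.7 CPM in caput, 2.25, 2.95 and 0.565 in the corpus and 4.27, 3.8 and 4.47 in cauda. The caput libraries were highest without overlap, and Kcna1 fell 31.1-fold into the corpus (log2 change -4.96, SE 0.32, edgeR adjusted p = 1.7e-08; log2 change -5.70 without corpus replicate 2). Kcnh3, an Elk family channel, read 103, 109.5 and 106 CPM in caput, 18.7, 27.8 and 22 in the corpus and 5.125, 5.4 and 6.96 in cauda, a fall of 4.51-fold and then 4-fold (log2 change -2.17, SE 0.13, edgeR adjusted p = 6.23e-09 and log2 change -2.0, SE 0.17, edgeR adjusted p = 7.25e-07). Its relative Kcnh8 held 13, 25 and 34 counts in caput, 0 in each corpus library and 0, 0 and 3 in cauda. It was at least 34.8-fold higher in caput than in corpus, taking 3 counts over the corpus libraries as the floor, with an edgeR adjusted p of 3.1e-05.

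KCNQ channels, the slow potassium channels of heart, nerve and secretory epithelia, were highest in cauda for both genes described here. Kcnq1 read 31.05, 29.6 and 25.1 CPM in caput, 35.6, 36.6 and 42 in the corpus and 58.6, 62 and 68.9 in cauda. Its segments did not overlap, with a 1.65-fold rise into the cauda (log2 change 0.72, SE 0.10, edgeR adjusted p = 0.000106), and the smaller rise into the corpus (adjusted p = 0.00779) was lost without replicate 3 of every segment (adjusted p = 0.105). Kcnq5 held 2 counts in caput, 2 in the corpus and 55 in cauda, and was 23.5-fold (95% counting interval 6.2 to 199) higher in cauda than in corpus (edgeR adjusted p = 0.000948), where the smooth muscle markers were also higher; their part was not tested. Kcne3, the subunit that keeps KCNQ1 open in intestinal and airway epithelium, read 2.7, 4.99 and 4.22 CPM in caput, 17.2, 17.5 and 15.25 in the corpus and 1.025, 1.2 and 1.66 in cauda. Kcne3 thus peaked in corpus, where it rose 4.13-fold (log2 change 2.05, SE 0.24, edgeR adjusted p = 6.98e-06) before a 12.5-fold fall into the cauda (log2 change -3.65, SE 0.26, edgeR adjusted p = 1.61e-07), while Kcnq1 was highest in cauda. Kcne1, the cardiac partner of KCNQ1, had 7 counts in all and was not tested.

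Of the potassium channels opened by calcium or sodium, the large-conductance BK pore gene Kcnma1 was the most abundant per length in corpus and cauda. Kcnma1 had 20 ± 0.845 CPM in caput, 29 ± 4.58 in the corpus and 35 ± 6.25 in cauda, and was higher in cauda than in caput (log2 change 0.81, SE 0.16, edgeR adjusted p = 0.000696); the call from caput to corpus (adjusted p = 0.0109) was lost without corpus replicate 3 (adjusted p = 0.0518). Its beta subunit gene Kcnmb4 was highest in caput, with 6.41, 9.05 and 10.3 CPM there, 0.3745, 1.4 and 0.753 in the corpus and 0, 0.4 and 0.331 in cauda. It fell 8.85-fold into the corpus (log2 change -3.15, SE 0.43, edgeR adjusted p = 3.04e-05; log2 change -3.74 without corpus replicate 2), but 32.4% of its 36-base windows occur in another gene, 2 antisense RNAs overlap it and the strand setting of the counting is not given, so that reads of the gene and of its antisense partners cannot be told apart. Kcnt1, a sodium-activated channel, read 34.1, 27.45 and 21.4 CPM in caput, 1.87, 1.55 and 0.753 in the corpus and 0.683, 0.6 and 1.82 in cauda. It was enriched in caput, 20.4-fold over corpus (log2 change -4.35, SE 0.35, edgeR adjusted p = 1.76e-07). Kcnn4, the intermediate-conductance channel of secretory epithelia, had 2.96 ± 0.52 CPM in caput, 0.487 ± 0.551 in the corpus and 0.87 ± 0.633 in cauda, and its caput to cauda fall (adjusted p = 0.017) lost its call in 4 of the 9 fits that left out a library, with adjusted p from 0.0522 to 0.0635. Kcnu1, the sperm channel SLO3, did not pass the low-count filter, with 1, 1 and 1 counts in caput, 5, 7 and 8 in the corpus and 11, 17 and 17 in cauda. The fit without this filter called it higher in corpus (log2 change 2.15, edgeR adjusted p = 0.017) and in cauda (3.06, 0.000296) than in caput. The 19 male germ cell and sperm markers summed to 204 to 237 CPM in caput, 525 to 572 in the corpus and 729 to 1075 in cauda, and their part in the Kcnu1 counts was not tested.

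**Figure D3:**
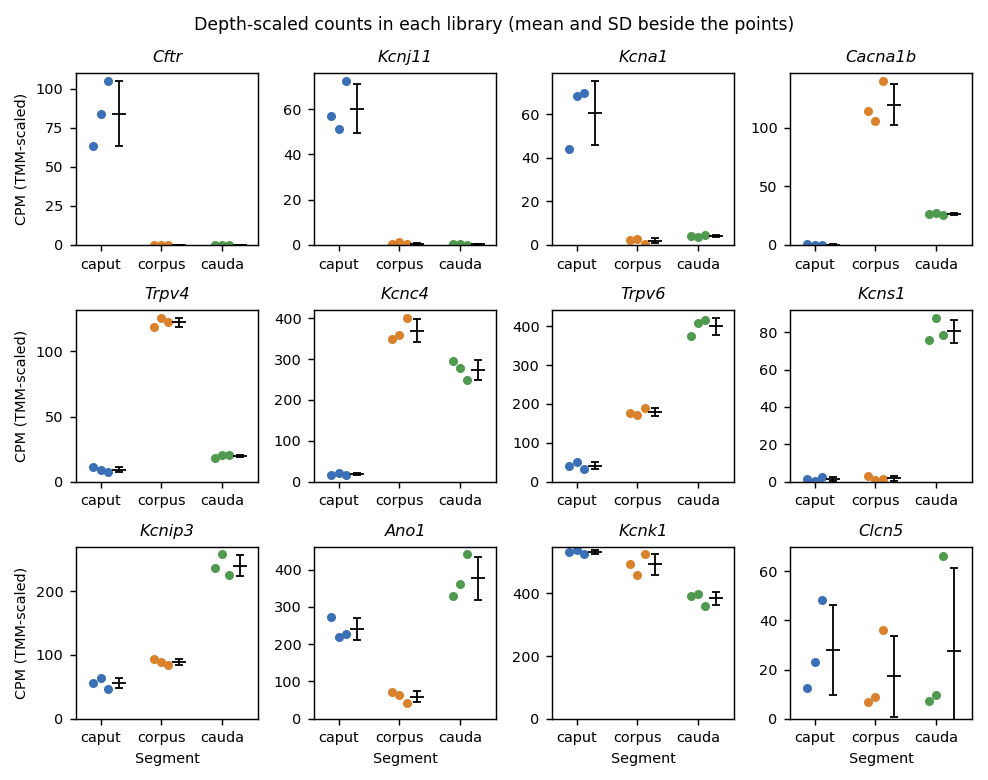
TMM-scaled CPM (linear axes from 0) of 12 ion channel genes in each of the 9 libraries, with the mean and SD of 3 libraries beside the points; the lower SD line of Clcn5 in cauda runs below 0 and is not drawn. Cftr, Kcnj11 and Kcna1 were highest in caput, Cacna1b, Kcnc4 and Trpv4 in corpus, Trpv6, Kcns1 and Kcnip3 in cauda, Ano1 was lowest in corpus, and Clcn5 was highest in replicate 3 of each segment.

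In all, 47 of the 103 tested genes (45.6%, background 17.6%) were at least 2-fold higher in 1 segment than in both others at an edgeR adjusted p under 0.05. Caput held 23 of them (background 9.92%), corpus 14 (background 4%) and cauda 10 (background 3.66%). Genes with few counts could pass the low-count filter only through the segment where they were high, which favours enrichment. The background was not matched for level, so these shares are descriptions. The caput genes included Cftr, 3 anoctamins, 3 calcium channel pores, 3 inward rectifiers and 4 voltage-gated potassium channels. Among the corpus genes were Trpv4, 2 calcium channel pores, 3 inward rectifiers and 3 voltage-gated potassium channels. Cauda had both calcium-selective TRPV channels, Trpc6, Kcnk3, Kcnip3 and Kcns1 among its voltage-gated potassium channels. Trpc6, a channel opened by diacylglycerol, is known from smooth muscle, whose markers had their highest sum in cauda, with Actg2 highest in caput; their part was not tested. The sum of ciliated cell markers, given beside Cftr, was highest in caput, and its part in the caput genes was not tested. Over both steps along the duct, 24 genes fell from caput to corpus with no call after it, and 17 rose into the corpus and fell out of it. A rise into the corpus with no later call was seen for 9, a rise into the cauda alone for 9 and a fall into the cauda alone for 4. Another 10 fell and rose again, 8 rose at both steps, 3 fell at both steps (Kcnh3, Kcnj15 and Trpm3), and 19 were called at neither step. These patterns were not counted over all tested genes, so the numbers have no background and describe the 103 only. Among the 8 that rose at both steps were Trpv6, Kcnip3 and Kcnq1. Clcn2, Clcn3, Clcn5, Trpc4ap and the non-coding Kcnq1ot1 were among the 19; a p above the threshold does not show that these were level.

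**Figure D4:**
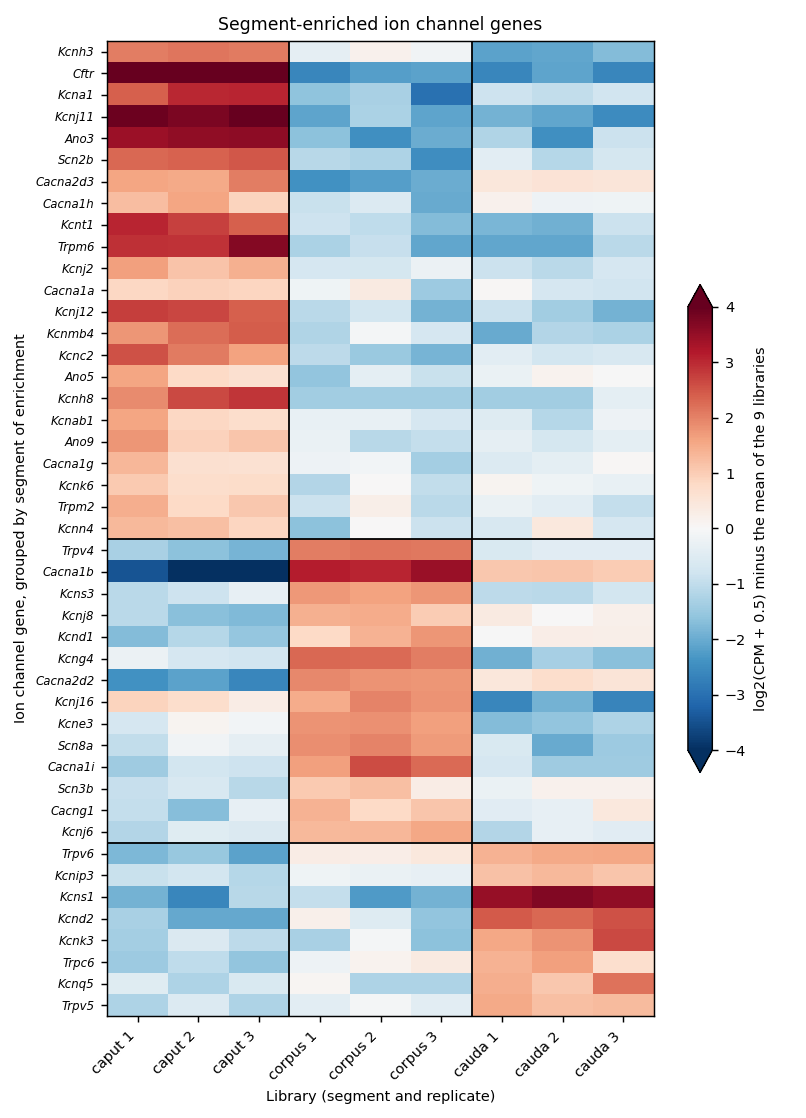
Difference of log2(CPM + 0.5) from the mean of the 9 libraries (colour, drawn from -4 to 4) for 45 of the 47 segment-enriched ion channel genes (rows) in the 9 libraries (columns); black lines part the segments. The 23 caput genes, 14 corpus genes and 8 cauda genes drawn form blocks in their own 3 libraries, as the choice of genes requires. In the corpus block, Cacna1b, Cacna2d2, Kcnd1, Kcnj8 and Trpv4 kept a level in cauda above that in caput (edgeR adjusted p under 0.05).

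Members near each other on a chromosome did not always share a segment. Among the 29 neighbouring pairs within 100 kb, both genes were enriched only for Trpv6 with Trpv5 and Kcnj16 with Kcnj2. The former pair shared a segment and the latter did not. Each of the other pairs held a gene that was untested or enriched in no segment, and some were a gene and its overlapping antisense RNA. RefSeq windows were matched for 139 of the 181 genes and for 33 of the 47 enriched genes. AGAACA was found in at least 1 window of 3 of 15 caput genes, 2 of 11 corpus genes and 1 of 7 cauda genes, or 20%, 18.2% and 14.3%, against 21.3% of the 27025 genes with a window. TGANTCA was found in 0, 1 and 1 of them (Kcne3 in the corpus and Kcnip3 in cauda) against 8.97% of all genes, and CCGGAAG in none against 9.93%. A match is a description of these letters only and was not tested.

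Genes that work with these channels were counted in 5 lists, given here as descriptions beside the background. From caput to corpus the called share was 93.8% of the tested genes of sodium absorption, 76.5% of anion secretion, 70.6% of calcium handling, 64.3% of other channel families and 77.8% of accessory proteins, against 57.7% of all tested genes, of which 29.5% rose and 28.2% fell. In the list of 18 epithelial sodium absorption genes, 16 were tested, of which 9 rose and 6 fell from caput to corpus. Between caput and cauda 9 of the 16 were higher in cauda (background 27.5%) and 4 lower (background 27.2%). Sgk1, the kinase that keeps ENaC at the membrane, had 25.3 ± 1.93 CPM in caput, 229 ± 23.8 in the corpus and 243 ± 13.9 in cauda, a rise into the corpus (log2 change 3.18, adjusted p = 2.56e-11 in edgeR). Wnk4, a kinase that regulates sodium and chloride transport, had 30.1 ± 3.6 CPM in caput, 167 ± 19.9 in the corpus and 81.6 ± 9.22 in cauda and rose into the corpus (log2 change 2.48, adjusted p = 1.79e-09). The protease gene Tmprss2, whose product can activate ENaC, had 8.94 ± 1.24 CPM in caput, 38.2 ± 5.16 in the corpus and 36.3 ± 3.915 in cauda. The median log2 change of the list from caput to corpus was 0.59, beside 0 over all tested genes.

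In the list of 19 genes of anion secretion with CFTR, Cftr included, 17 were tested; 5 rose and 8 fell from caput to corpus, with a median log2 change of -0.19. Pdzk1, a scaffold that binds CFTR, had 554 ± 30.7 CPM in caput, 9.59 ± 2.47 in the corpus and 23.7 ± 5.93 in cauda, and fell into the corpus (log2 change -5.79, adjusted p = 7.77e-12 in edgeR). Slc4a4, a sodium bicarbonate cotransporter, had 110.5 ± 8.68 CPM in caput, 3.92 ± 0.203 in the corpus and 8.38 ± 2.21 in cauda and fell likewise (log2 change -4.80, adjusted p = 3.43e-11). Car4, a membrane carbonic anhydrase, rose instead, from 1.23 ± 0.404 CPM in caput to 934 ± 53.8 in corpus (log2 change 9.56, adjusted p = 5.66e-14), and stood at 28.7 ± 3.19 in cauda. Lrrc26, the gamma subunit that lets BK channels open at resting voltage, had no count in caput, 19.9 ± 1.39 CPM in corpus and 1.36 ± 0.170 in cauda, a fall from corpus to cauda (log2 change -3.86, adjusted p = 2.04e-07).

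Of 22 genes of calcium entry and handling, 17 were tested. From caput to corpus 5 rose (background 29.5%) and 7 fell (background 28.2%). From corpus to cauda 7 rose (background 18.8%) and 5 fell (background 20.4%). Stim1, the sensor that opens store-operated channels, had 26 ± 5.895 CPM in caput, 163 ± 14.5 in the corpus and 132.5 ± 8.89 in cauda and rose into the corpus (log2 change 2.66, adjusted p = 1.79e-09 in edgeR). Itpr3, an inositol trisphosphate receptor, peaked in corpus with 43.4 ± 0.822 CPM in caput, 188.5 ± 23.4 in the corpus and 34.2 ± 3.32 in cauda (log2 change 2.12, adjusted p = 1.48e-09 and then log2 change -2.47, adjusted p = 1.27e-09). Ryr3, a ryanodine receptor, did the same with 3.53 ± 1.58 CPM in caput, 47.1 ± 8.23 in the corpus and 5.05 ± 2.52 in cauda. Calb1, a calcium buffer of calcium-absorbing epithelia, had 0 counts in every library.

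Of 67 genes of other channel families, 63 were in the table and 42 tested. In corpus 14 were higher (background 29.5%) and 13 lower (background 28.2%) than in caput. In cauda 15 were higher (background 27.5%) and 15 lower (background 27.2%) than in caput. Gabrp, an epithelial GABA receptor subunit, had no count in caput, and 0.922 ± 0.947 CPM in corpus and 42.7 ± 5.72 in cauda (log2 change 5.25, adjusted p = 3.3e-07 in edgeR). P2rx1, the ATP-gated channel of smooth muscle, had 0.288 ± 0.267 CPM in caput, 0.935 ± 0.561 in the corpus and 56 ± 14.9 in cauda (log2 change 6.02, adjusted p = 1.42e-08), beside the smooth muscle markers given above, whose part was not tested. Mcoln3, an endolysosomal cation channel, was highest in caput, with 9.92 ± 3.8 CPM in caput, 0.239 ± 0.118 in the corpus and 1.52 ± 0.279 in cauda. Of 18 accessory channel proteins, 9 were tested, and 5 rose and 2 fell from caput to corpus, Dpp6 and Amigo1 among them as given above. The lists were chosen with earlier results of these data known, and their counts are descriptions.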

How the data were processed

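RNA-seq of caput, corpus and cauda epididymis was analysed from the deposited table of raw counts per gene; the authors' deposited RPKM (reads scaled to gene length and library size) were used to compare levels between genes. Libraries were made with a KAPA stranded kit and read as 36-base single reads, per the labels' protocols. CASAVA 1.8.2, FastQC 0.11.2, Bowtie2 2.2.0 and mm10 are named in the submitters' processing notes; no counting tool, annotation or strand setting is named in those sources. The columns of other samples numbered 0.

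With R 4.3.3 and edgeR 4.0.16 (limma 3.58.1), filterByExpr kept 14168 of 24059 genes, libraries were scaled by TMM, and 1 quasi-likelihood model over the 9 libraries tested each pair of segments and all 3 together, with Benjamini-Hochberg adjustment over all tested genes. The biological coefficient of variation was 10.13%. Scripts were tested on simulated data. Segment-enriched means at least 2-fold over both other segments and adjusted p under 0.05 for both. Where a segment held 3 counts or fewer, ratios of summed counts are given with exact 95% intervals, which cover counting error only, and 0 counts were replaced by a floor of 3 over the segment. Genes were named by rule: up to 8 per direction and comparison with the largest change among called genes of at least 2 CPM whose libraries do not overlap, the 8 highest RPKM per segment, and a list of 23 genes. That list holds epithelial channel genes and the sperm channel gene Kcnu1. Others are said to be named after their values were seen, and class members, neighbours and genes of the pathway lists are named as such. Members and lists were chosen with earlier results of these data known. Alternatives were other scalings, filters and dispersion settings, DESeq2 1.42.0, Rn45s left out, the segments compared alone, the replicate block and each library left out. Same-numbered libraries deviated together with correlations from -0.043 to 0.212, and the labels do not say that a number marks a shared mouse. Some genes of the set are not reported here by name; they are kept in all counts, sums and adjustments.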

Additional observations from a re-analysis of the deposited data

How the results depend on the processing

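Across the alternatives, 71 members called between caput and corpus became 62 to 80, 51 between corpus and cauda became 45 to 63, 72 between caput and cauda became 67 to 82, and 86 in the F test became 78 to 102. Relative to its size, the count of members enriched in cauda moved most, from 10 with the low-count filter to 16 without it, where 166 members were tested in place of 103. Leaving out each library in turn gave 69 to 72, 45 to 55 and 67 to 76 called members in the 3 comparisons, 84 to 89 in the F test, and 19 to 23, 12 to 15 and 8 to 12 enriched in caput, corpus and cauda. With the replicate block, 71, 54 and 72 members were called, 87 in the F test, and 23, 13 and 10 were enriched; correlations of same-numbered libraries ran from -0.043 to 0.212, so the numbers were not taken as pairing. The block called Clcn5 between caput and corpus (log2 change -0.83, edgeR adjusted p = 0.0171), Clcn2 between corpus and cauda (-0.50, 0.0495) and Kcna1 between corpus and cauda (1.18, 0.0321), and lost Kcnd2 between caput and corpus (2.80, 0.0553). The last 2 changes were not particular to the block. Kcna1 was called there under 6 alternatives, among them DESeq2 (adjusted p = 0.0159), and Kcnd2 lost its call under 8. Of 162 named values, 120 were called, 111 of these under every alternative and 9 lost under at least 1; 9 uncalled values were called under at least 1. None changed sign while called. The setting without replicate 3 of every segment was chosen after seeing the data. No scaling moved the median of all genes by over 0.1 on the log2 scale. The depth limits low genes: 78 of the 181 did not pass the low-count filter, and 15 of these had 0 counts in all libraries.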
